A study of Rattus norvegicus with 48 samples.

Results

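Kidneys of carrier-treated male rats of strain F were compared with kidneys of carrier-treated male rats of strain L. The 8 arrays of this comparison, 4 titled F-00 and 4 titled L-00, were chosen by their titles from the 48 arrays of the series, and all 8797 probe sets were used. The study measured kidney RNA on whole-transcript arrays in 4 strains, named F, L, FL and LF, after 7 or 10 days of indole-3-carbinol given by gavage (a daily 100 mg per kg of body weight), or after vegetable oil carrier alone, which the labels call day 0. Each of the 12 groups had 4 arrays and, per the labels' protocols, 8 rats. The groups used here were F at day 0 (carrier), L at day 0 (carrier), F and L at days 7 and 10 (indole-3-carbinol), and FL and LF at day 0 (carrier). All rats were male, with an age of 12 weeks in the sample labels and 12 to 14 weeks in the treatment protocol. The labels do not say what the strain letters stand for and name no allele or transgene, so nothing is known here about what the strains share or where they differ in their genomes. The design text calls the arrays biological replicates. Whether an array held RNA of 1 rat or a pool was not stated, so p-values measure the spread between arrays of a group, pooled over all 48 arrays, which may be technical.

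The kidney takes up drugs, steroids and organic acids from the blood and modifies them with cytochromes P450, carboxylesterases, aldo-keto reductases, sulfotransferases and glutathione transferases before they are excreted. It is also a site of the angiotensin system, in which renin cuts angiotensinogen (Agt) and angiotensin-converting enzyme (Ace) turns the product into angiotensin II, which raises blood pressure and sodium retention through its receptors. In rodents many of the drug-metabolising enzymes belong to families of close copies that differ in level between inbred strains and between sexes.

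The carrier arrays had medians of 5.76 to 6.03 log2 signal and a standard deviation over probe sets of 2.36 to 2.52, and L replicate 4 had the lowest value of both. Correlations over all probe sets were 0.987 to 0.992 within a strain and 0.984 to 0.989 between F and L. The 14 measured proximal tubule markers averaged 11.4 to 11.5 log2 in the F arrays and 11.3 to 11.5 log2 in the L arrays, and none of them passed the test. The number of arrays limits the precision, and a signal is comparable between arrays only for the same probe set. The sequences of the probes were not used, so a strain's sequence difference under a probe and a difference in transcript level cannot be told apart. In whole kidney, fewer cells of a type and less RNA per cell cannot be told apart either.

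F kidneys were higher than L kidneys at 61 probe sets and lower at 75. These 136 were 1.55% of the probe sets tested, 0.693% higher and 0.853% lower, by limma with a Benjamini-Hochberg adjusted p under 0.05. With replicate number as a block the counts were 82 higher and 113 lower, and all 136 were among them. The test found 720 probe sets at an unadjusted p under 0.05. Of the 136, 117 carried a single gene symbol, and these were 116 genes of 7589 measured (1.53%). Their differences ranged from 0.285 to 4.83 on the log2 scale in size, with a median of 0.74, and 41 exceeded 1. Over all probe sets the median difference was -0.01. Leaving out L replicate 4 gave 39 higher and 100 lower probe sets, and leaving out F replicate 4 gave 40 higher, and the lowest count of lower probe sets was 51, without L replicate 2. Errors given below as ± are standard errors of the difference between means of 4 F and 4 L arrays, with a spread for each probe set that is pooled over all 48 arrays, treated groups included (36 residual degrees of freedom). They are therefore not the spread of the 8 carrier arrays. Differences are F minus L on the log2 scale.

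The counts and their balance moved with the fit. With only the 8 carrier arrays, 31 probe sets were higher and 48 lower. With array medians subtracted, 136 were higher and 112 lower, so the higher share was 54.8%, beside 44.9% as deposited. Among the genes named below, Ubd, Apobec1, Ccl6, Mmp9, Acaa2, Hsd17b7, Insig1, Nupr1, Gstt1, Aox1, Cidec, Notch3, Cspg4, Lrrc46, Fat1, Tacr1 and Nxph4 lost their call with only the 8 arrays, with adjusted p-values of 0.0578 to 0.296 by limma.

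**Figure D1:**
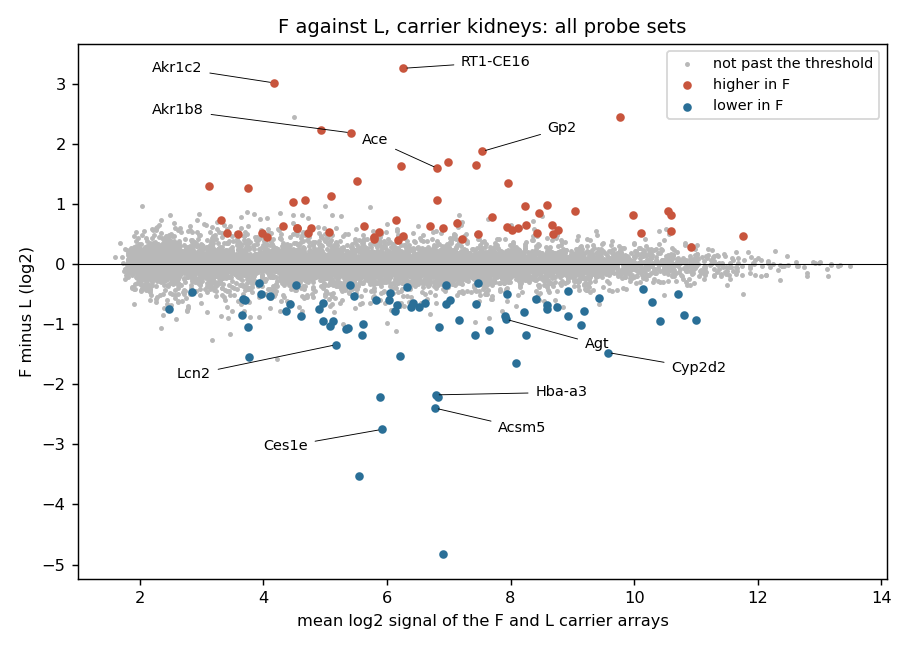
Difference between F and L (vertical axis, log2) against the mean log2 signal of the 8 carrier arrays (horizontal axis) for all 8797 probe sets. The 61 red points were higher in F and the 75 blue points lower in F past the threshold, and grey points did not pass it. The points lie on both sides of 0 and over most of the signal range.

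The 15 genes with the largest positive and the 15 with the largest negative difference past the threshold were described in full. Each gene was ranked at its probe set with the highest mean signal. Slc7a12 was therefore ranked at 0.89 and left out, although its other probe set differed by 2.44. In all 30, the 4 F arrays lay entirely on one side of the 4 L arrays, and the difference had the same sign in each of the 4 array runs. Ranges without overlap were found at 465 probe sets in all (5.29%) and at 131 of the 136. Since the 30 were picked by size, these counts describe them and test nothing. The fold exceeded 2 in 15 of the genes higher in F and in 14 of those lower in F.

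**Figure D2:**
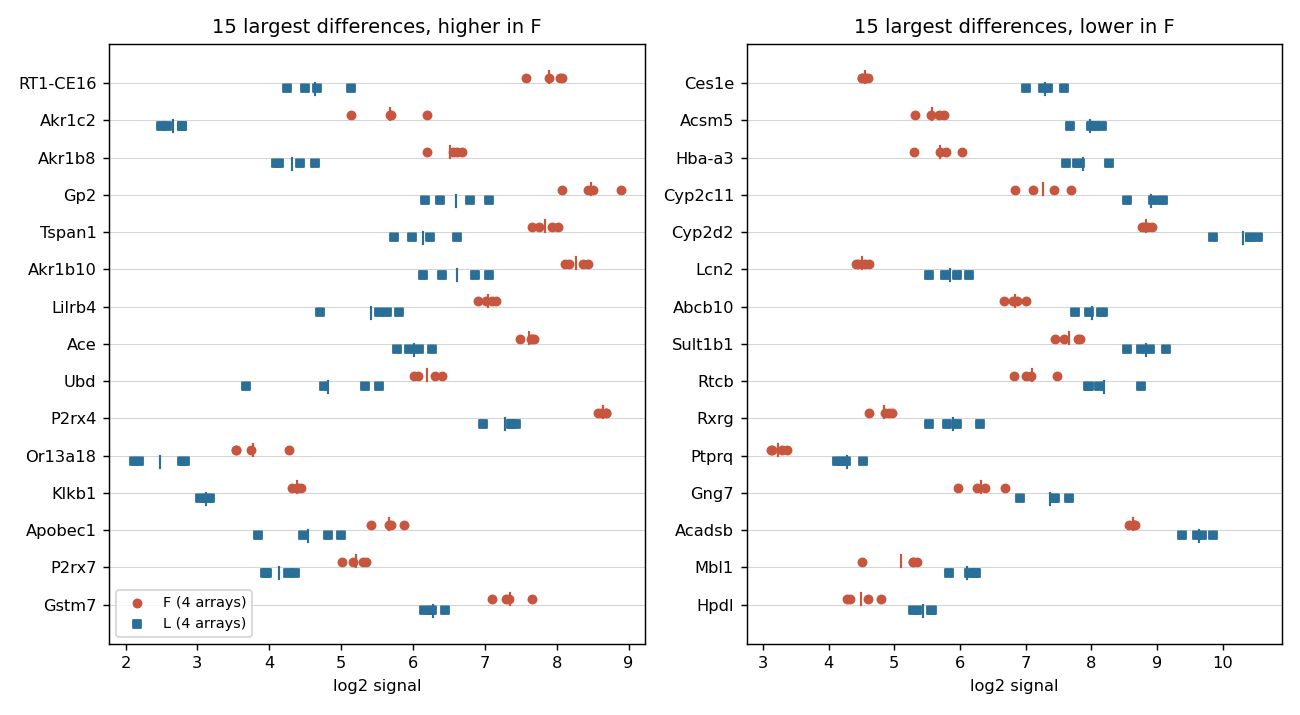
Log2 signal (horizontal axis) in every carrier array of F (red circles) and L (blue squares) for the 15 genes with the largest positive difference (left) and the 15 with the largest negative difference (right). Vertical ticks are group means. No gene shows an F array inside the range of the L arrays.

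Enzymes of drug and steroid metabolism were part of that set, in both directions, while the called Acsm3, Aox1 and Gstt1 were outside it. Of 68 measured genes of this list, 6 were higher in F and 6 were lower (17.6%, beside 1.53% of all genes), and the median of the list was -0.06. The list was written with earlier results of these data known, so its count is a description. Many members have near-identical copies, and how the probe sets divide signal between copies is uncertain.

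Akr1c2, an aldo-keto reductase of the hydroxysteroid dehydrogenase branch, gave 5.70, 6.20, 5.68 and 5.14 log2 in the F arrays, against 2.49, 2.79, 2.57 and 2.79 log2 in the L arrays. Every F array was above every L array by more than 2 log2 units. The difference was 3.02 ± 0.25 (8.11-fold, adjusted p = 1.08e-11). Akr1b8, a reductase of aldehydes, gave 6.61, 6.56, 6.19 and 6.68 log2 in F, against 4.14, 4.63, 4.09 and 4.43 log2 in L. It differed by 2.19 ± 0.47 (adjusted p = 0.00542). Its neighbour on chromosome 4, Akr1b10, a reductase of the same subfamily, gave 8.43, 8.37, 8.11 and 8.17 log2 in F, against 6.14, 6.86, 7.06 and 6.41 log2 in L. The Akr1b10 difference of 1.65 ± 0.41 (adjusted p = 0.0232) no longer passed without F replicate 1, 2 or 4 or L replicate 1 or 4, with an adjusted p of up to 0.117. The glutathione transferase Gstm7 gave 7.10 to 7.65 log2 in F and 6.16 to 6.44 log2 in L, and rose by 1.06 ± 0.19 (adjusted p = 0.000393). Acsm3, a mitochondrial medium-chain acyl-CoA synthetase, was 0.86 ± 0.22 higher in F (adjusted p = 0.0236). Aldehyde oxidase Aox1 was 0.53 ± 0.14 higher (adjusted p = 0.0355). The Acsm3 call was lost without F replicate 2, 3 or 4 or L replicate 1 or 4 (adjusted p up to 0.144), and the Aox1 call without any array other than F replicate 1 (up to 0.193).

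In the other direction stood Ces1e, a carboxylesterase that hydrolyses ester bonds of drugs and lipids. It gave 4.51, 4.60, 4.57 and 4.50 log2 in F, against 7.34, 7.26, 7.58 and 7.00 log2 in L. The F arrays lay close together and far below the L arrays, and the gene differed by -2.75 ± 0.22 (6.73-fold, adjusted p = 3.07e-12). Acsm5, another acyl-CoA synthetase of the Acsm family, gave 5.76, 5.56, 5.31 and 5.68 log2 in F, against 8.16, 8.00, 8.06 and 7.67 log2 in L. Its difference of -2.40 ± 0.11 had the smallest adjusted p among the 8797 probe sets (2.01e-19). Acsm5 and Acsm3, both Acsm synthetases, thus differed in opposite directions. Cyp2c11, a cytochrome P450 that hydroxylates steroids and is the main male form in rat liver, gave 6.84, 7.11, 7.43 and 7.69 log2 in F, against 8.54, 8.94, 9.09 and 9.07 log2 in L. The strains did not overlap, and the F arrays were spread over almost 1 log2 unit. The difference was -1.64 ± 0.43 (adjusted p = 0.0356), with an error that is pooled over all 48 arrays and is not the spread of these 8. That call was lost without F replicate 1, 2 or 3 or L replicate 2, 3 or 4 (adjusted p up to 0.138). Cyp2d2, a drug-oxidising cytochrome P450, gave 8.77 to 8.93 log2 in F and 9.86 to 10.54 log2 in L, and fell by 1.47 on the log2 scale (SE 0.17, adjusted p = 4.00e-08). The sulfotransferase Sult1b1 gave 7.44 to 7.82 log2 in F and 8.55 to 9.13 log2 in L, a difference of -1.17 ± 0.26 (adjusted p = 0.00590). Gstt1, a theta-class glutathione transferase, was -0.71 ± 0.13 in F relative to L (adjusted p = 0.000580, and 0.0633 with only the 8 arrays).

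The aryl hydrocarbon receptor and Nrf2 switch on many of these enzymes when foreign compounds arrive. A list of selected targets, which also names the regulators Ahr, Arnt, Nfe2l2 and Keap1, was examined on its own. None of its 15 measured genes passed the test in carrier kidneys by limma, and their median was -0.06. The enzymes described above are not in this list, so it does not cover all targets. Cyp1a1, the main target of the aryl hydrocarbon receptor, gave 4.22, 3.84, 4.23 and 4.75 log2 in F, against 3.57, 4.00, 4.14 and 4.08 log2 in L. Its ranges overlapped and it did not pass (0.31 ± 0.43, adjusted p = 0.988).

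Akr1b8 with Akr1b10, and P2rx4 with P2rx7, were the only pairs of neighbouring called genes that were both higher in F. P2rx4 and P2rx7 encode ion channels opened by extracellular ATP. Because these neighbours moved together, the 300 bases around the start site of each (250 before and 50 after) are shown from RefSeq on GRCr8, 5′ to 3′ on the gene's strand. They are the letters of the reference assembly, not those of F or L. Capitals mark matches to a GC box or to the core of the antioxidant response element. The Akr1b8 promoter lies at chr4:63964171-63964470 on the plus strand, that of Akr1b10 at chr4:64005382-64005681 on the plus strand, that of P2rx4 at chr12:39523040-39523339 on the minus strand and that of P2rx7 at chr12:39594873-39595172 on the minus strand.
Akr1b8: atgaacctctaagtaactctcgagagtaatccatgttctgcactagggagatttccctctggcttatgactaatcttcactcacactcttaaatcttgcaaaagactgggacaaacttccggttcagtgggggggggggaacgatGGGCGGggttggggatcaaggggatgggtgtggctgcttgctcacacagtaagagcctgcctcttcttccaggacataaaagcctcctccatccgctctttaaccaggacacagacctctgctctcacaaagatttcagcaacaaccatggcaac
Akr1b10: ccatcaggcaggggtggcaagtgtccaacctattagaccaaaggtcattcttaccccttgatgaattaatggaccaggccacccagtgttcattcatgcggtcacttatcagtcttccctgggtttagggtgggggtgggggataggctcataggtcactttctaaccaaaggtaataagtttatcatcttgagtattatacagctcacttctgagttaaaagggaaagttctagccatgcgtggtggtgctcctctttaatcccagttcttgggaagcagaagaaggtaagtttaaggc
P2rx4: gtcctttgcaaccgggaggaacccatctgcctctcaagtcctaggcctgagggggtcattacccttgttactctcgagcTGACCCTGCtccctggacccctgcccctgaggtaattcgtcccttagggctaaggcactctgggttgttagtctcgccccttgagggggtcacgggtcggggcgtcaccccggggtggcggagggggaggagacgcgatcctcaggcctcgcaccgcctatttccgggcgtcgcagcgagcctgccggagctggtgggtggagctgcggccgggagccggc
P2rx7: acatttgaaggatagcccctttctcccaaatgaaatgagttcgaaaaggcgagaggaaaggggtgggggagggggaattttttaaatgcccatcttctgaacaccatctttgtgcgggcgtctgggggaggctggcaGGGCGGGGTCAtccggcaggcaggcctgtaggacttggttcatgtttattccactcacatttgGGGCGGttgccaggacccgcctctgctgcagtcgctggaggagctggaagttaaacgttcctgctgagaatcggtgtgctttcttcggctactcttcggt

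The 4 motifs were searched on both strands, the TATA box (TATAAA), the CCAAT box (CCAAT), the GC box (GGGCGG) and the antioxidant core (TGACNNNGC). Akr1b8 held 1 GC box, which began at -105 relative to the start site, and Akr1b10 held none of the 4 motifs. P2rx4 held 1 antioxidant core, which began at -171. P2rx7 held 2 GC boxes, which began at -113 and -50, and an antioxidant core on the other strand that overlapped the first of them. Among 33469 promoters of this length, 14.2% held a TATA box, 37.5% a CCAAT box, 33.1% a GC box and 12.1% an antioxidant core, so each match is common. No motif was shared by all 4 promoters, and a match is a description of letters only.

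P2rx4 gave 8.62, 8.69, 8.58 and 8.68 log2 in F, against 7.43, 7.36, 7.38 and 6.97 log2 in L. It differed by 1.36 ± 0.15 (adjusted p = 2.38e-08). P2rx7 gave 5.34, 5.31, 5.16 and 5.01 log2 in F, against 3.97, 3.94, 4.36 and 4.26 log2 in L, a difference of 1.07 ± 0.16 (adjusted p = 1.11e-05). P2rx4 was thus 2.56-fold and P2rx7 2.10-fold higher in F, with no overlap between strains.

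The angiotensin system showed a rise and a fall. Ace gave 7.64, 7.68, 7.49 and 7.65 log2 in F, against 6.08, 5.94, 6.27 and 5.78 log2 in L. All F arrays lay more than 1 log2 unit above all L arrays, and the difference was 1.60 ± 0.16 (3.03-fold, adjusted p = 1.83e-09). Agt, the precursor of the angiotensins, gave 7.62, 7.30, 7.60 and 7.34 log2 in F, against 8.62, 8.50, 8.30 and 8.10 log2 in L. The lowest L array was above the highest F array, and Agt differed by -0.91 ± 0.14 (adjusted p = 3.78e-05). Agtr1a, a receptor of angiotensin II, gave 7.05 to 7.17 log2 in F and 6.89 to 7.49 log2 in L and did not pass (-0.12 ± 0.20, adjusted p = 0.997). Of 13 measured genes of the angiotensin and kallikrein list, Ace was higher in F, Agt was lower and 11 did not pass, with a median of 0.08. Klkb1, plasma prekallikrein, which releases bradykinin from kininogen once activated, was placed in the complement and coagulation list. It gave 4.32 to 4.44 log2 in F and 3.03 to 3.17 log2 in L, and differed by 1.27 ± 0.15 (adjusted p = 1.74e-07).

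Genes of antigen presentation and immune cells differed at a few members. RT1-CE16, a class I histocompatibility gene of the rat RT1 complex on chromosome 20, gave 7.90, 8.04, 8.08 and 7.57 log2 in F, against 4.67, 5.14, 4.24 and 4.49 log2 in L. This was the largest positive difference among genes past the threshold (3.26 ± 0.25, 9.60-fold, adjusted p = 9.40e-13), in a family whose copies vary between strains and are hard to tell apart by probes. It was the only called gene of 21 histocompatibility genes measured by a probe set with a single symbol, whose median was 0.20. Probe sets with several symbols were not counted in this list. Differences in the list ran from -0.295 to 3.26. The class II genes RT1-Da (0.55, adjusted p = 0.0814), RT1-Bb (0.43, 0.428) and RT1-Ba (0.41, 0.424) had positive differences that did not pass by limma. They are given outside the naming rule below, and class II genes as a group were not tested. Lilrb4, an inhibitory receptor known from mouse and human myeloid cells, gave 7.02, 7.16, 7.10 and 6.91 log2 in F, against 5.53, 5.64, 5.81 and 4.70 log2 in L (1.63 ± 0.25, adjusted p = 4.05e-05). Ubd, a ubiquitin-like protein induced by interferon-gamma and tumour necrosis factor, gave 6.31, 6.41, 6.01 and 6.07 log2 in F, against 4.76, 5.33, 3.67 and 5.52 log2 in L. The L arrays of Ubd spread over almost 2 log2 units, and its call (1.38 ± 0.37, adjusted p = 0.0430) was lost without any of the F replicates or without L replicate 1 or 3 (adjusted p up to 0.322). Apobec1, the enzyme that edits the messenger RNA of apolipoprotein B, was 1.13 ± 0.25 higher (adjusted p = 0.00542, and 0.0531 without L replicate 4).

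Among 47 measured chemokines and cytokines, 1 was higher and 1 lower. Cxcl9, which attracts T cells and is induced by interferon-gamma, gave 3.38 to 3.89 log2 in F and 2.81 to 3.08 log2 in L (0.74 ± 0.15, adjusted p = 0.00271). Ccl6, a rodent chemokine of myeloid cells, gave 4.34 to 5.0 log2 in F and 5.14 to 5.82 log2 in L (-0.94 ± 0.23, adjusted p = 0.0163). Its call was lost without F replicate 1 or 4 or L replicate 1, 2 or 3 (adjusted p up to 0.0961). Mbl1, a mannose-binding lectin that starts the lectin pathway of complement, gave 4.50, 5.28, 5.35 and 5.29 log2 in F, against 6.22, 6.25, 6.13 and 5.83 log2 in L. It differed by -1.0 ± 0.24 (adjusted p = 0.0179), a call lost without F replicate 1 or L replicate 1, 2 or 3 (up to 0.145). With Klkb1, it made 1 higher and 1 lower of 33 complement and coagulation genes. None of 27 interferon response genes passed by limma (median -0.09). The 9 measured macrophage and granulocyte markers averaged 5.02 to 5.26 log2 in F and 5.02 to 5.44 log2 in L. The 11 measured markers of T, natural killer and B cells averaged 4.20 to 4.36 log2 in F and 4.22 to 4.31 log2 in L. None of either marker list passed, and the part of these cells in the differences above was not tested.

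Lcn2, a lipocalin that binds iron-carrying siderophores and is used as a marker of tubular injury, was lower in F. It gave 4.45, 4.42, 4.55 and 4.61 log2 in F, against 5.77, 5.95, 6.14 and 5.53 log2 in L (-1.34 ± 0.20, 2.53-fold, adjusted p = 2.93e-05). The highest F array was well below the lowest L array. Havcr1, the injury marker also called Kim-1, gave 4.00, 3.66, 3.63 and 3.91 log2 in F, against 3.76, 3.82, 4.32 and 3.74 log2 in L and did not pass (-0.11 ± 0.54, adjusted p = 0.997). Lcn2 was the only called gene of 26 measured tubular injury and acute phase genes. Nupr1, a stress-induced nuclear protein, was -0.79 ± 0.21 (adjusted p = 0.0390) with 1 L array inside the range of F. It was the only called gene of 22 in the p53 and stress list, and its call was lost without F replicate 1, 2 or 3 or L replicate 1, 2 or 3 (adjusted p up to 0.175).

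Transporters and other membrane proteins differed in both directions. Slco1a6, an organic anion transporter, gave 10.25 to 10.47 log2 in F and 11.13 to 11.35 log2 in L (-0.84 ± 0.12, adjusted p = 7.74e-06). Slc38a3, which carries glutamine, gave 9.70 to 10.11 log2 in F and 10.39 to 10.70 log2 in L (-0.63 ± 0.13, adjusted p = 0.00206). Slc7a12, a transporter of the amino acid carrier family 7, gave 10.88, 11.36, 11.05 and 10.67 log2 in F at the brighter of its probe sets, against 9.87, 10.25, 10.36 and 9.91 log2 in L (0.89 ± 0.18, adjusted p = 0.00251). Its other probe set differed by 2.44 ± 0.24 (adjusted p = 1.83e-09), so the probe sets shared the direction but not the size. The remaining 62 of 65 measured renal solute carriers did not pass (median of the list 0.00). Gp2, a membrane-anchored glycoprotein related to uromodulin, gave 8.51, 8.89, 8.43 and 8.08 log2 in F, against 6.38, 6.79, 7.06 and 6.17 log2 in L (1.88 ± 0.26, adjusted p = 5.07e-06). Tspan1, a tetraspanin of epithelial membranes, gave 7.65 to 8.02 log2 in F and 5.74 to 6.61 log2 in L (1.70 ± 0.19, adjusted p = 6.03e-08). Abcb10, a transporter of the inner mitochondrial membrane, gave 6.67 to 7.00 log2 in F and 7.75 to 8.17 log2 in L (-1.17 ± 0.13, adjusted p = 4.00e-08).

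Metabolic genes outside drug handling changed at single members. Acadsb, the mitochondrial dehydrogenase of short and branched acyl-CoA, gave 8.65, 8.63, 8.66 and 8.58 log2 in F, against 9.61, 9.69, 9.86 and 9.38 log2 in L (-1.01 ± 0.18, adjusted p = 0.000472). Acaa2, a thiolase of mitochondrial fatty acid oxidation, went the other way with 0.53 ± 0.13 (adjusted p = 0.0233), and was the only called gene of 32 in the fatty acid oxidation list. Leaving out F replicate 1 or 2 or L replicate 2, 3 or 4 ended the Acaa2 call (adjusted p up to 0.120). In the cholesterol and fatty acid synthesis list, 2 of 25 measured genes were higher in F, none was lower, and the median was 0.26. Insig1, which holds back the sterol-sensing activator of this pathway, gave 8.56, 8.63, 9.41 and 9.35 log2 in F, against 8.35, 8.41, 8.28 and 8.32 log2 in L (0.65 ± 0.17, adjusted p = 0.0303). F replicates 3 and 4 were well above the other F arrays, and the call was lost without either of them or without any of the L arrays (adjusted p up to 0.234). Hsd17b7, which also acts in cholesterol synthesis, was 0.41 ± 0.09 higher (adjusted p = 0.00434) and kept its call without any single array, but not with only the 8 arrays (adjusted p = 0.143). Hpdl, an enzyme related to 4-hydroxyphenylpyruvate dioxygenase, was -0.94 ± 0.24 (adjusted p = 0.0232), a call lost without F replicate 1 or 3 or L replicate 1 or 2 (up to 0.105).

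Signalling genes and others completed the set. Rxrg, the gamma form of the retinoid X receptor, gave 4.62 to 4.96 log2 in F and 5.53 to 6.30 log2 in L (-1.06 ± 0.15, adjusted p = 9.25e-06). Gng7, a gamma subunit of G proteins, gave 5.97 to 6.68 log2 in F and 6.91 to 7.66 log2 in L (-1.04 ± 0.19, adjusted p = 0.000719). Rtcb, the catalytic subunit of the transfer RNA ligase, gave 7.48, 6.82, 7.01 and 7.08 log2 in F, against 7.95, 7.96, 8.76 and 8.11 log2 in L (-1.10 ± 0.22, adjusted p = 0.00251). Mmp9, a gelatinase that degrades basement membrane collagen, gave 5.21, 5.22, 4.61 and 5.25 log2 in F, against 4.39, 4.59, 4.40 and 4.50 log2 in L (0.60 ± 0.16, adjusted p = 0.0380). It was the only called gene of 29 matrix and fibrosis genes, and its call was lost without any array other than F replicate 3 (adjusted p up to 0.170). Or13a18, an olfactory receptor gene, gave 3.75, 3.53, 3.54 and 4.27 log2 in F, against 2.79, 2.18, 2.83 and 2.11 log2 in L (1.29 ± 0.29, adjusted p = 0.00831, and 0.0678 without F replicate 4).

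Hba-a3, a haemoglobin alpha chain gene, gave 5.30, 5.78, 6.03 and 5.69 log2 in F, against 8.27, 7.62, 7.83 and 7.78 log2 in L (-2.17 ± 0.33, adjusted p = 3.34e-05). Haemoglobin genes mark red blood cells. None of the 4 measured erythroid and platelet markers passed. They were Hbb-b1, Pf4, Ppbp and Slc4a1, and Slc4a1 is also in the collecting duct list. Their mean level was 6.32 to 6.585 log2 in the F arrays and 6.5925 to 6.835 log2 in the L arrays. By this mean every L array lay above every F array, but only by a narrow margin. The beta chain gene Hbb-b1 differed by -0.66 ± 0.34 (adjusted p = 0.636). Its ranges overlapped, with 8.25 to 9.53 log2 in F and 9.49 to 10.03 log2 in L. Pf4 differed by -0.33 and Ppbp by -0.085, while Slc4a1 went the other way (0.0925). The part of blood in the Hba-a3 difference was not tested.

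Cell type markers of the kidney were called at 1 or 2 members of a list, or at none. The share called was 20% of 10 smooth muscle, pericyte and fibroblast markers, 10% of 10 podocyte markers and 9.09% of 11 adrenal and adipose markers. In the other marker lists it was 0%. Beside these stood 1.53% of all genes, and each share above 0% rests on 1 or 2 genes. None of 12 loop of Henle and distal tubule markers, 15 collecting duct markers or 7 endothelial markers passed by limma, with medians of 0.12, 0.09 and -0.11. Ptprq, a receptor-type phosphatase found in podocytes, gave 3.12, 3.14, 3.28 and 3.36 log2 in F, against 4.27, 4.18, 4.52 and 4.12 log2 in L (-1.05 ± 0.15, adjusted p = 5.07e-06). The other 9 of 10 measured podocyte markers did not pass, and the mean level of the list was 6.79 to 6.93 log2 in F and 6.71 to 7.14 log2 in L. Of 10 smooth muscle, pericyte and fibroblast markers, Notch3 (-0.35 ± 0.08, adjusted p = 0.00833) and Cspg4 (-0.47 ± 0.11, adjusted p = 0.00872), both known from pericytes, were lower in F. The median of that list was -0.30, and its mean level was 6.48 to 6.60 log2 in F and 6.53 to 6.95 log2 in L. Both calls were lost without L replicate 3 (adjusted p = 0.0929 for Notch3 and 0.0836 for Cspg4), and with only the 8 arrays (0.296 and 0.102). The Notch3 call was also lost under a second quantile normalization. Cidec, a protein of fat droplets, was the only called gene of 11 adrenal and adipose markers (-0.67 ± 0.18, adjusted p = 0.0459). That call was lost without F replicate 1, 3 or 4 or L replicate 1, 2 or 3 (up to 0.212). The part of these cell types in the other differences was not tested.

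None of 14 clock genes or 34 respiratory chain genes passed by limma, with medians of -0.08 and 0.05. Beside 1.53% of all genes, the share called was 17.6% of 68 in the drug and steroid metabolism list, 15.4% of 13 in the angiotensin and kallikrein list, 8.0% of 25 in cholesterol and fatty acid synthesis, 4.62% of 65 in the renal solute carriers and 0% in 4 of the 15 lists. In the remaining 7 lists it was 3.12% to 6.06%, from 1 or 2 genes each.

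**Figure D3:**
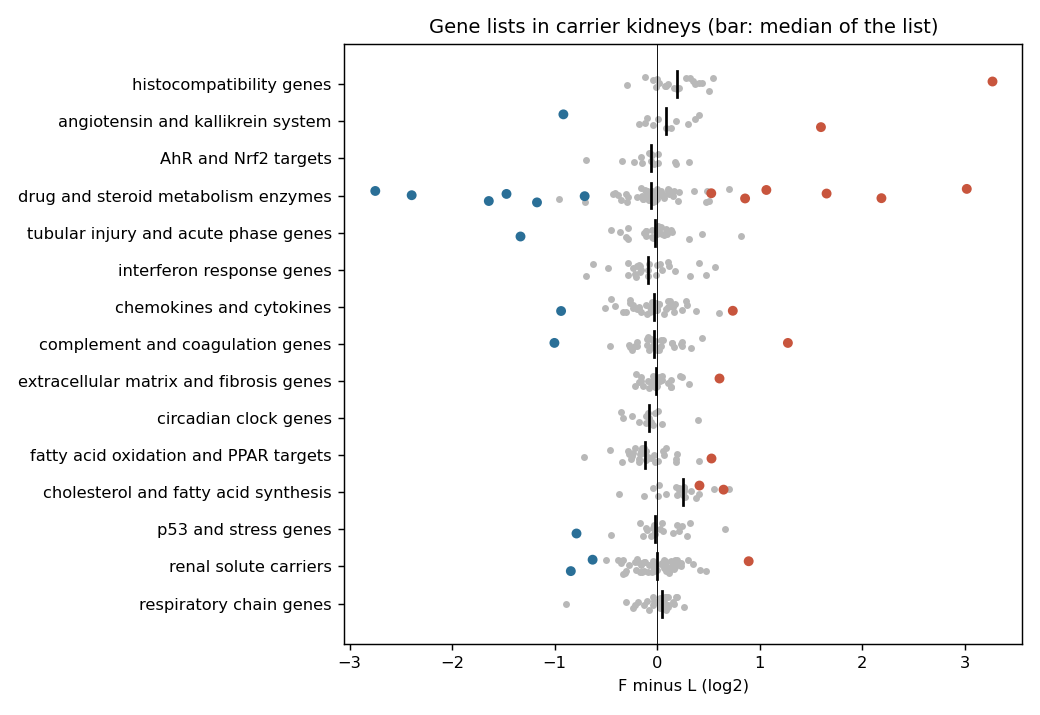
Difference between F and L in carrier kidneys (horizontal axis, log2) for each measured gene of 15 lists (rows). Red points were higher in F and blue points lower in F past the threshold, grey points did not pass, and black bars are list medians. The drug and steroid metabolism row holds 6 red and 6 blue points, and no other row holds more than 3.

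Probe sets without a single gene symbol also held large differences, and they count in none of the gene lists. Probe set 7220176, which carries several symbols, gave 5.32, 4.35, 4.18 and 4.10 log2 in F, against 9.15, 9.51, 9.58 and 9.04 log2 in L, the largest difference of all 136 (-4.83 ± 0.45). Probe set 7330154, also with several symbols, differed by -3.53 ± 0.45. Both were added after their values were seen. Of the probe sets without any symbol, 7108040 was 2.24 ± 0.16 and 7371237 was 0.63 ± 0.12 higher in F. On the other side, 7197285 differed by -2.22 ± 0.39 and 7312161 by -1.54 ± 0.24. The 8 arrays of each of these 4 showed no overlap between strains.

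The same strains were measured again after 7 and 10 days of indole-3-carbinol on arrays that share none with the carrier groups. The tests still share the pooled spread of each probe set, so calls at different days are not independent. Of the 136 probe sets, 134 had the same sign at day 7 (98.5%, beside 57.7% of all probe sets) and 132 at day 10 (97.1%, beside 58.9%). At day 7, where 2.14% of all probe sets passed (1.25% higher in F and 0.887% lower), 84 of the 136 passed in the same direction and 0 in the opposite one. At day 10, where 3.86% passed (0.83% higher and 3.04% lower), 93 did so in the same direction and 0 in the opposite one. The 84 were 44.7% of the probe sets called at day 7 and 61.8% of the 136. The 93 were 27.4% of those called at day 10 and 68.4% of the 136. At all 3 days 72 passed in the same direction, 30 higher and 42 lower, while 31 passed at day 0 alone of the 3. Of the 30 genes with the largest differences, 26 were called in the same direction at day 7 and 26 at day 10.

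All 12 called enzymes of drug and steroid metabolism kept their sign at both later days, but not all passed the test there. Aox1 passed at neither day (adjusted p = 0.0788 and 0.522), Sult1b1 did not pass at day 7 (0.0851), and Acsm3 (0.411) and Akr1b10 (0.0752) did not pass at day 10. Ces1e was -3.13 at day 7 and -3.32 at day 10, Acsm5 was -2.22 and -2.47, Cyp2d2 was -1.43 and -1.66, and Akr1c2 was 3.19 and 3.54. Ace was 1.21 and 1.07, each past the threshold (adjusted p = 1.22e-06 and 1.59e-05). Agt was -0.98 and -1.08. Or13a18 had -0.01 at day 7 and -0.05 at day 10, Mmp9 had 0.06 and -0.16, and Insig1 had 0.23 and 0.12, none past the threshold. Cyp1a1 and Havcr1, which did not pass at day 0, gave 1.64 (adjusted p = 0.0307) and 3.03 (adjusted p = 0.000349) at day 7. At day 10 Cyp1a1 gave 1.82 (adjusted p = 0.0101), and Havcr1 gave 1.29 and did not pass (0.173). The moderated F test of whether the F minus L difference changed over the 3 days called 0 of 8797 probe sets by limma, with 499 at an unadjusted p under 0.05 and a smallest adjusted p of 0.542. A difference past the threshold at 1 day and not at another is therefore not shown to have changed between days.

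**Figure D4:**
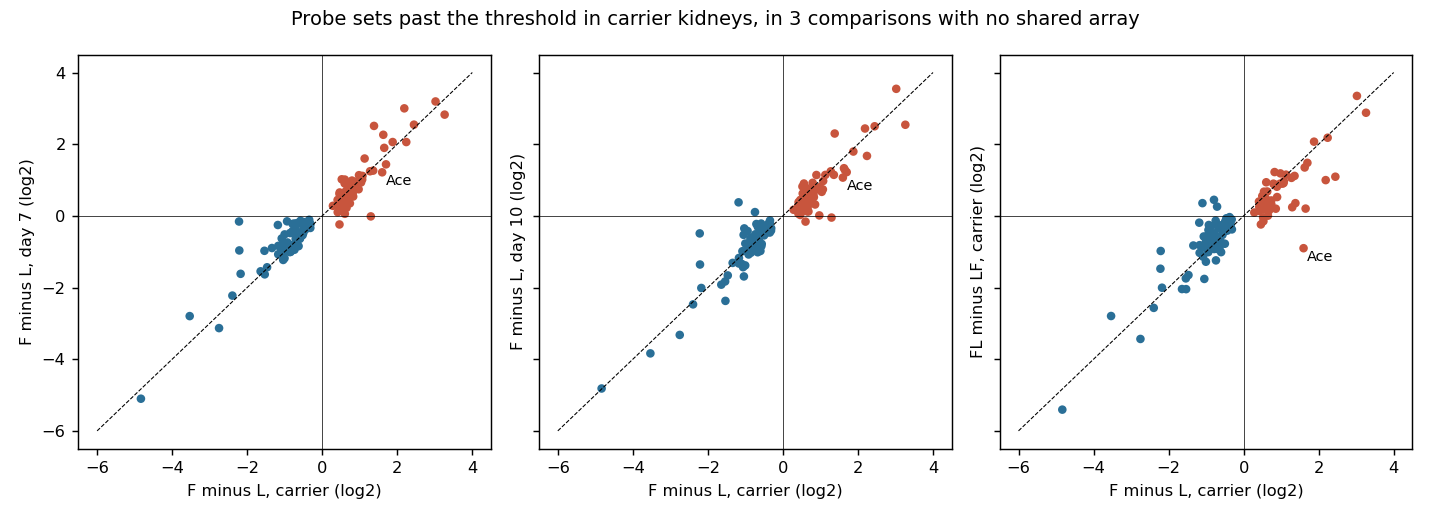
The 136 probe sets past the threshold in carrier kidneys, with F minus L in carrier kidneys on the horizontal axis and, on the vertical axes, F minus L at day 7 (left), F minus L at day 10 (middle) and FL minus LF in carrier kidneys (right), all log2. Red points were higher in F at day 0, blue points lower, and the dashed line marks equal values. Ace lies above 0 on the left and in the middle and below 0 on the right.

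Carrier kidneys of FL and LF gave a further comparison on separate arrays, with the same pooled spread of each probe set. In it 3.07% of probe sets passed, 0.796% higher in FL and 2.27% lower. FL minus LF had the same sign as F minus L at 129 of the 136 (94.9%, beside 58.8% of all probe sets). There were 73 past the threshold in the same direction, 27.0% of those called between FL and LF, and 1 in the opposite direction, which was Ace. Of the 30 genes with the largest differences, 23 were called in the same direction. RT1-CE16 differed by 2.88, Akr1c2 by 3.35, Ces1e by -3.43 and Acsm5 by -2.57 between FL and LF. Ptprq differed by -1.76 and Rxrg by -0.57. Of the 72 probe sets called at all 3 days, 49 were also called here.

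Ace ran the other way. It gave 6.45, 6.06, 6.08 and 6.48 log2 in FL, against 7.12, 7.40, 7.05 and 7.11 log2 in LF, and FL minus LF was -0.90 ± 0.16 (adjusted p = 0.000207). All LF arrays were above all FL arrays and below all F arrays, while the FL arrays overlapped those of L. By mean the order was F at 7.61, LF at 7.17, FL at 6.27 and L at 6.02. The 5 measured genes on each side of Ace on chromosome 10 passed in neither comparison by limma, with Marchf10 at -0.07 (F minus L) and -0.08 (FL minus LF) and Kcnh6 at -0.08 and 0.03. The other 6 of the 7 probe sets with opposite signs did not pass between FL and LF. They were Rtcb (0.36), Nupr1 (0.45), Nxph4 (0.26), Tacr1 (-0.24), Acaa2 (-0.15) and Igfbp4 (-0.04).

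**Figure D5:**
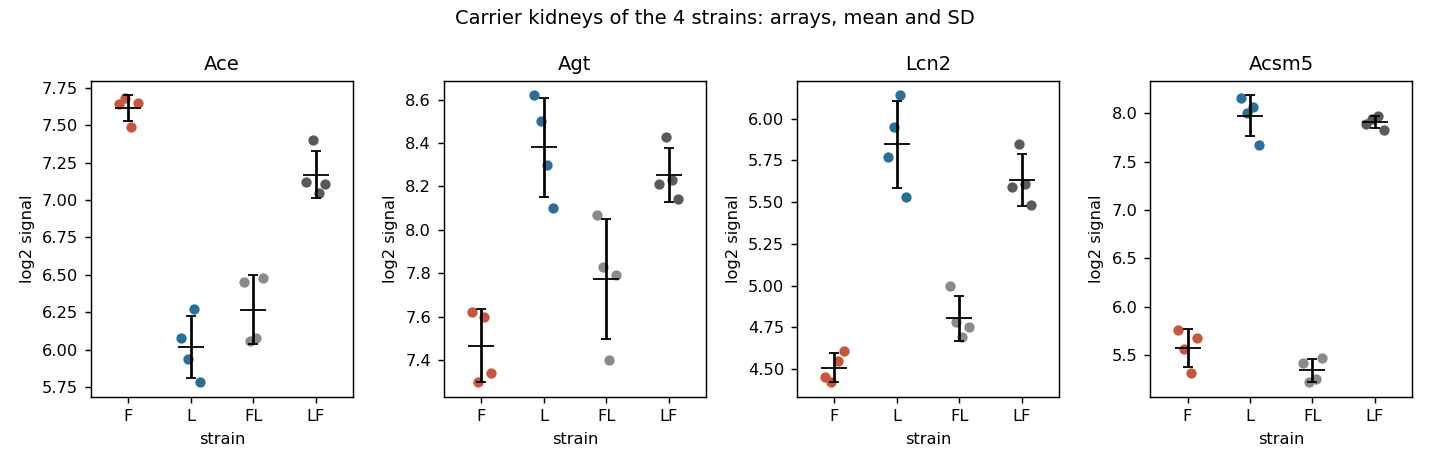
Log2 signal (vertical axes) of Ace, Agt, Lcn2 and Acsm5 in the 4 carrier arrays of each strain, with the mean (bar) and standard deviation (whiskers). For Ace, F (7.49 to 7.68) and LF (7.05 to 7.40) lie above L (5.78 to 6.27) and FL (6.06 to 6.48).

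Akr1b8 and Akr1b10 split the FL arrays. Akr1b8 gave 6.42, 3.85, 5.87 and 4.28 log2 in FL, against 4.19, 4.66, 3.78 and 3.80 log2 in LF, and Akr1b10 gave 7.62, 5.80, 7.32 and 5.72 log2 in FL, against 6.66, 6.78, 6.11 and 6.10 log2 in LF. For both genes FL replicates 1 and 3 were high and FL replicates 2 and 4 low, and neither gene passed between FL and LF (adjusted p = 0.306 and 0.862).

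Of the called genes, 115 could be placed in the RefSeq order of 7570 measured genes, and they lay on every autosome and on the X chromosome. They were 1.52% of the placed genes, and the share per chromosome ran from 0.465% on chromosome 15 to 3.13% on chromosome 2 (14 of 447). In 4 cases called genes were direct neighbours among the measured genes. Akr1b8 with Akr1b10 and P2rx4 with P2rx7 went the same way. Scrn2 (-0.93) with Lrrc46 (0.60) on chromosome 10 and Klkb1 (1.27) with Fat1 (-0.44) on chromosome 16 went opposite ways. The Scrn2 call was lost without F replicate 3 or 4 or L replicate 1 or 2 (adjusted p up to 0.0732), and the Lrrc46 call without F replicate 2 or 3 or L replicate 1, 3 or 4 (up to 0.168).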

How the data were processed

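The authors deposited 1 table of log2 signals per probe set for 48 arrays, and RMA and limma are the tools listed, with neither version nor role, per the submitters' processing notes. Per the labels' protocols, Trizol-extracted total RNA was treated with DNase, cleaned on a column, depleted of ribosomal RNA (1 µg as input) and turned into biotin-labelled sense cDNA. Which filters, probe annotation and array design were used is not given in the sources used here. The deposited values ran from 1.04 to 14.02 with 0 missing values and 0 unmapped columns. Medians over the 48 arrays ran from 5.66 to 6.06.

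A mean for each of the 12 groups was fitted over the 48 arrays with limma 3.58.1 in R 4.3.3 (36 residual degrees of freedom). The contrasts F minus L at days 0, 7 and 10 and FL minus LF at day 0, and a moderated F test of the F minus L difference over the days, were each adjusted by Benjamini-Hochberg over 8797 probe sets at a threshold of 0.05. Symbols came from the platform annotation, updated through the Entrez identifier to RefSeq GRCr8 (7584 probe sets matched). There were 7603 probe sets with 1 symbol, 409 with several and 785 with none. For 14 symbols with several probe sets the one with the highest mean was used. No genome was used, and gene order came from RefSeq. Gene lists and marker lists hold only probe sets with 1 symbol and are described by counts and medians.

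The text names the 15 largest differences in each direction past the threshold, up to 4 called members of each list, up to 5 in each direction called both here and between FL and LF, and Ace, Agt, Agtr1a, Cyp1a1, Havcr1 and Lcn2 throughout. The gene lists, the members and this rule were chosen with earlier results of these data known. Further called list members, cell type markers, neighbours and the genes in the other observations were added after their values were seen. The code was tested on simulated data.

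Each replicate number belongs to 1 array run of 12 arrays in the labels' file names, which pairs arrays of F and L with the same number. The correlations of their deviations were 0.11, 0.07, -0.06 and 0.06 for numbers 1 to 4, and 2 of the 4 correlated best with their own number. Alternatives were the run as a block, only the arrays compared, array weights, other scalings, the array spread as a covariate, a filter on dim probe sets, another prior, and leaving out each array.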

Additional observations from a re-analysis of the deposited data

Results flagged for a closer look

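Ace differed between F and L by 1.22 to 1.87 in the 4 array runs, higher in F in each, while FL minus LF was -0.90 in carrier kidneys with every run negative. Rtcb was lower in F in each run, by values of -1.75 to -0.47 (F minus L), while FL minus LF was 0.36. Tacr1, a substance P receptor, was higher in F in each run by 0.34 to 0.71, while F minus L was -0.24 at day 7 and FL minus LF was -0.24 in carrier kidneys. In each of these cases every run went one way in the first comparison and the opposite way in the second. The moderated F test across days, which covers Tacr1 at day 7, called 0 of 8797 probe sets by limma (smallest adjusted p = 0.542). A change of Tacr1 between days is therefore not shown. The difference between F minus L and FL minus LF was not tested.

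In 10 of 152 groups of 4 arrays, a single array stood far from the other 3 by Dixon's criterion, which chance alone meets in about 1 in 20 groups. In F these were Mbl1 at 4.50 in replicate 1 (the others 5.28 to 5.35), Mmp9 at 4.61 in replicate 3 (5.21 to 5.25), Kcnab1 at 5.36 in replicate 4 (5.57 to 5.59), Haao at 9.99 in replicate 1 (the others all 9.93) and Gpt at 6.29 in replicate 2 (6.54 to 6.58). In L they were P2rx4 at 6.97 in replicate 4 (7.36 to 7.43), Havcr1 at 4.32 in replicate 3 (3.74 to 3.82), Lrrc46 at 4.70 in replicate 2 (4.06 to 4.12), probe set 7108040 at 3.94 in replicate 2 (3.76 to 3.78) and probe set 7197285 at 7.59 in replicate 4 (8.02 to 8.06).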

How the results depend on the processing

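Counts are given as higher and lower in F at day 0, F at day 7, F at day 10 and FL, in that order. With only the arrays compared they were 31 and 48, 58 and 38, 20 and 47, and 37 higher in FL. Of the 79 called at day 0, 69 were among the 136. With the replicate block, which pairs arrays by run, 113 were lower at day 0, 125 were higher and 686 lower at day 10, and 443 were lower in FL, and no named gene lost its call. Array weights gave 111 and 231, 220 and 124, 123 and 538, and 117 and 444. With array medians subtracted 136, 222 and 197 were higher at day 0, day 10 and in FL, and day 7 had 175 and 133. A second quantile normalization gave 144 and 145, 192 and 155, and 200 and 279 higher at day 10 and in FL. The array spread as a covariate gave 175 and 176, 226 and 207, 202 and 162, and 270 higher in FL. The higher share at day 0 was 44.9%, 49.8% with the second quantile normalization and 54.8% with medians subtracted. Leaving out single arrays gave 39 to 51 and 51 to 100, 74 to 106 and 41 to 75, 43 to 94 and 114 to 536, and 49 to 72 and 93 to 245, and the test across days called 0 to 0 probe sets. Dropping dim probe sets or using an intensity trend kept the day 0 counts within 1.5 times. The filter on dim probe sets kept only 74 of the 78 named features. Named genes with a low mean log2 signal over all arrays were P2ry4 (2.41), Or13a18 (2.64), Cxcl9 (3.13) and Ptprq (3.55). Of 78 named features, none that was called reversed at day 0. Havcr1, which was not called, ran from -0.18 to 0.03 with single arrays left out. With only the 8 arrays 26 lost their call, and they are named above and under the other observations below. Notch3 lost it under the second quantile normalization, and Tacr1 and P2ry4 with medians subtracted. The cause was not tested.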

Other observations

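Further genes past the threshold, chosen after their values were seen, are given here as single values, and no count or direction of a group is drawn from them. Tmlhe, the first enzyme of carnitine synthesis, gave 9.26 to 9.63 log2 in F and 8.36 to 8.77 log2 in L (0.89 ± 0.13, adjusted p = 7.38e-06), and was also called at days 7 and 10 and between FL and LF (0.91, 0.74 and 0.81). Agxt2, a mitochondrial aminotransferase that breaks down methylated arginines, was 0.47 ± 0.09 (adjusted p = 0.000899). Gnmt, glycine N-methyltransferase, gave 7.48, 7.46, 7.52 and 7.44 log2 in F, against 6.97, 6.91, 7.06 and 6.24 log2 in L, a difference of 0.68 ± 0.17 (adjusted p = 0.0294). Gpt, alanine aminotransferase, was 0.46 ± 0.12 (adjusted p = 0.0390). Lower in F were Cndp1, a carnosine dipeptidase (-0.86 ± 0.20, adjusted p = 0.0141), and Haao, an enzyme of tryptophan breakdown (-0.41 ± 0.10, adjusted p = 0.0284). Retsat, which saturates retinol, gave 10.35 to 10.66 log2 in F and 11.35 to 11.55 log2 in L (-0.93 ± 0.14, adjusted p = 1.32e-05), and FL minus LF was -0.26 (adjusted p = 0.374). Without single arrays the adjusted p reached 0.196 for Gnmt (lost without any F replicate or L replicate 4), 0.162 for Gpt (F replicate 1, 3 or 4 or L replicate 1, 2 or 4), 0.0687 for Cndp1 (F replicate 4 or L replicate 2) and 0.171 for Haao (any F replicate or L replicate 1 or 3).

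Guca2b, uroguanylin, which promotes sodium loss, gave 6.31 to 6.81 log2 in F and 5.61 to 6.03 log2 in L (0.74 ± 0.15, adjusted p = 0.00296). Vegfd, a lymphatic growth factor, was 0.60 ± 0.13 (adjusted p = 0.00765, and 0.0617 without L replicate 4). Sod3, the extracellular superoxide dismutase, was 0.56 ± 0.14 (adjusted p = 0.0242). Areg, a ligand of the epidermal growth factor receptor, was 0.54 ± 0.13 (adjusted p = 0.0166), and Igfbp4, which binds insulin-like growth factors, 0.52 ± 0.11 (adjusted p = 0.00661). Fst, follistatin, which binds activin, gave 5.81 to 6.27 log2 in F and 6.51 to 6.93 log2 in L (-0.71 ± 0.15, adjusted p = 0.00349). The call was lost for Sod3 without F replicate 1, 2 or 3 or L replicate 2 or 4 (adjusted p up to 0.118) and for Areg without F replicate 3 or L replicate 2 or 3 (up to 0.108). Also lower in F were Kcnab1, a potassium channel beta subunit (-0.60 ± 0.14), Clca4, a regulator of chloride conductance (-0.59 ± 0.12), Kcnma1, the large-conductance potassium channel (-0.35 ± 0.09), and P2ry4 (-0.74 ± 0.20). The Kcnab1 call was lost without F replicate 4 or L replicate 1 or 3 (adjusted p up to 0.0743), the Kcnma1 call without F replicate 1, 2 or 3 or L replicate 2 or 3 (up to 0.219), and the P2ry4 call without F replicate 2, 3 or 4 or L replicate 1, 2 or 3 (up to 0.206). With only the 8 arrays, Areg, Sod3, Vegfd, Kcnma1, Kcnab1, Clca4, Haao, Gpt and Gnmt lost their call, with adjusted p-values from 0.0578 (Kcnab1) to 0.364 (Kcnma1) and 0.133 for Clca4.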
